A study of Arabidopsis thaliana with 156 samples.

Results

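AT1G03020, AT3G62950 and AT3G62960 encode CC-type glutaredoxins of Arabidopsis thaliana, and the array carried 1 probe set for each of these 3 genes among 19324 probe sets in all. They were chosen by locus from earlier results of these same arrays, as genes with a higher signal in plants without functional FLC. Which organ and position drove that choice is not recorded in the sources used here, so every difference between genotypes given for these genes is a description, with no test. In the arrays, the higher signal without FLC was found mainly in fully expanded leaves and in leaves past full expansion. In shoot apices and leaf primordia a few gene and stage pairs lay apart in that direction, by at most 0.88 on the log2 scale. A few others lay apart the other way, lower without FLC. The largest such difference was -1.05, for AT3G62950 in day 11 apices.

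Glutaredoxins are small thiol oxidoreductases that use glutathione as electron donor. The CC type, named after the cysteine pair in its active site and called the ROXY family in Arabidopsis, occurs in land plants, and its members bind TGA transcription factors of the bZIP class. Members studied in Arabidopsis act in petal and anther development (ROXY1 and ROXY2), in salicylate-responsive defence signalling (GRX480, AT1G28480) and in reporting shoot nitrogen demand to the root (CEPD1 and CEPD2). FLC is a MADS-domain repressor of flowering, and an active FRI raises its expression, so FRI;FLC plants flower late and FRI;flc-3 plants, which carry a defective FLC allele, flower early.

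The study compared FRI;flc-3 with FRI;FLC plants, all with the active FRI allele of Sf-2 introgressed into Col-0 and all grown under 16 h of light, and added FRI;FLC;35S::miR156mimic plants, in which a target mimic driven by the broadly active 35S promoter lowers the activity of miR156, the microRNA of the juvenile phase. Every group carries FRI. The genotypes are also written flc-3, FLC and mimic; beside a signal, FLC stands for the plants and not for the gene. The arrays fell into 53 groups, of which 51 had 3 arrays, FLC day 6 apices had 2 and flc-3 day 6 apices had 1. Shoot apices with the smallest primordia were taken from day 4 to day 11 in flc-3 and from day 4 to day 21 in FLC, and at day 6 in mimic plants. Primordia 1 mm long and fully expanded leaves of positions 1/2, 3, 5, 7, 9 and 11 were taken in both genotypes, the expanded leaves in experiments 1 and 2, and leaves 3, 5 and 7 past full expansion were taken on day 32 in flc-3 and day 33 in FLC. Primordia belonged to experiment 1, and apices and leaves past full expansion were collected with experiment 2. Expanded leaf 11 was a cauline leaf in flc-3 and a rosette leaf in FLC. Each replicate was a pool of organs from several plants and of RNA from 3 times of day, and nothing in the labels says that replicates came from separate sowings, so p-values measure the spread between such pools.

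Signals are the deposited log2 values, which ran from 0.30 to 13.99 with array medians between 6.40 and 6.92. The 10% quantile of all values was 2.03, and no detection calls were used here, so differences among signals near 2 carry little information. Within groups, arrays correlated with a median r of 0.992, and the lowest r was 0.9543, between the 2 FRI;FLC day 6 apex arrays. Organ markers were measured in part. AUR1 (AT4G32830), a mitotic kinase gene, had medians of 9.99 in apices and 10.34 in primordia but 4.07 in expanded leaves and 3.45 in leaves past full expansion, and RCA (AT2G39730), the Rubisco activase gene, had medians between 11.91 and 13.01 in the 4 organ types. CLV3 (AT2G27250), a stem cell gene of the shoot meristem, had a median of 2.64 in apices (1.93 to 5.97) and at most 2.44 elsewhere, so it set young apices apart and older ones only weakly. Since organs are mixtures of cells, fewer cells of a type and less RNA per cell cannot be told apart.

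The gene models lie on chromosomes 1 and 3 of assembly TAIR10.1. AT1G03020 (probe set 263168_at) spans 697919 to 698591 of chromosome 1. AT3G62950 (251196_at) spans 23266227 to 23267090 of chromosome 3, and AT3G62960 (251197_at) follows at 23268641 to 23269324, with 1550 bases between them. Another CC-type gene, AT3G62930, ends 4299 bases before AT3G62950, so these family members lie close together there. Whether RNA of near copies reached the same probes was not tested. Over all arrays the mean signal was 4.88 for AT1G03020, 6.26 for AT3G62950 and 4.82 for AT3G62960, and 33.8%, 46.0% and 33.3% of probe sets had a lower mean.

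In expanded leaves the signal of AT1G03020 stayed high with leaf position in FRI;flc-3 plants and fell in FRI;FLC plants. In leaves 1/2, experiment 1, AT1G03020 measured 7.71, 8.29 and 8.42 in flc-3 and 5.97, 8.26 and 7.12 in FLC, and the groups overlapped. In leaves 3 it measured 8.10, 8.74 and 8.47 in flc-3, against 4.41, 5.01 and 4.74 in FLC. From that position up, every flc-3 array of experiment 1 lay above every FLC array. In leaf 7 the values were 7.30, 8.53 and 7.70 in flc-3 and 4.36, 3.33 and 3.86 in FLC. In leaf 9 they were 8.58, 8.10 and 8.63 in flc-3 and 2.63, 1.90 and 1.91 in FLC. In leaf 11 they were 10.62, 9.79 and 9.52 in the cauline leaf of flc-3 and 1.64, 1.71 and 1.94 in the rosette leaf of FLC. The FLC arrays of leaf 11 thus lay below the 10% quantile of all signals.

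Experiment 2 had the same order of genotypes for AT1G03020. Leaves 1/2 measured 7.48, 7.68 and 7.50 in FRI;flc-3 and 5.90, 6.44 and 5.80 in FRI;FLC. Leaf 9 measured 8.67, 9.18 and 8.41 in flc-3 and 2.81, 2.53 and 3.09 in FLC. Leaf 11 measured 9.54, 9.95 and 9.90 in flc-3 and 1.98, 1.90 and 2.22 in FLC. No array of the 2 genotypes overlapped at any position of experiment 2, and over both experiments flc-3 arrays all lay above FLC arrays in 11 of 12 position and experiment pairs, with differences of group means from 1.02 to 8.21 and a median of 3.85. Over all probe sets, 12.5% of such pairs in expanded leaves were higher without overlap; the genes were chosen on a contrast of this kind, so the count describes them and supports nothing.

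AT3G62950 started from the same high signal in both genotypes and parted later. In leaves 1/2, experiment 1, AT3G62950 measured 9.70, 9.41 and 9.14 in FRI;flc-3 and 9.19, 9.48 and 9.20 in FRI;FLC. In experiment 2 it measured 8.55, 9.98 and 10.01 in flc-3 and 9.63, 9.67 and 9.27 in FLC, so the genotypes overlapped at this position in both experiments. At leaves 3 and 5 the genotypes lay apart without overlap in both experiments, with differences of means of 2.07 at either leaf in experiment 1, and of 1.06 at leaf 3 and 0.70 at leaf 5 in experiment 2. Leaf 7 of experiment 1 measured 8.86, 9.19 and 9.00 in flc-3 and 7.37, 6.25 and 7.55 in FLC, without overlap. Leaf 7 of experiment 2 measured 8.58, 9.64 and 10.30 in flc-3 and 8.65, 8.21 and 8.63 in FLC, with overlap. The genotypes had thus parted from leaf 3 up, with leaf 7 of experiment 2 as the exception. In leaf 9 of experiment 1 the signal was 8.78, 8.23 and 7.93 in flc-3 and 4.76, 2.70 and 3.81 in FLC. In leaf 9 of experiment 2 it was 8.06, 9.29 and 8.90 in flc-3 and 3.03, 4.05 and 7.14 in FLC, where 1 array stood well above the other 2. At this position every flc-3 array was above every FLC array in both experiments. In leaf 11, AT3G62950 measured 10.39, 10.22 and 9.66 in flc-3 and 3.38, 5.42 and 5.71 in FLC in experiment 1. In experiment 2 it measured 10.17, 10.19 and 10.09 in flc-3 and 4.34, 6.02 and 5.01 in FLC. Over the 12 pairs, 9 were higher in flc-3 without overlap (12.5% of such pairs over all probe sets), and the differences ran from -0.01 to 5.25 with a median of 2.01. This count, too, restates the choice of the genes.

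Among expanded leaves AT3G62960 had a different course, low in the first leaves of both genotypes and high only in the later leaves of FRI;flc-3. In leaves 1/2, experiment 1, AT3G62960 measured 3.75, 3.78 and 3.73 in flc-3 and 3.33, 4.52 and 4.28 in FRI;FLC. In leaf 7 it measured 5.11, 3.95 and 5.11 in flc-3 and 2.74, 3.55 and 2.53 in FLC in experiment 1. In experiment 2, leaf 7 measured 7.10, 7.78 and 7.19 in flc-3 and 3.81, 3.84 and 4.19 in FLC. The experiments therefore differed in how high the flc-3 signal stood at leaf 7, which was collected on day 26 in experiment 1 and day 29 in experiment 2; the part of that day difference was not tested. In leaf 9 the values were 8.79, 9.50 and 10.02 in flc-3 and 3.60, 4.11 and 5.29 in FLC in experiment 1. In experiment 2 they were 7.57, 9.56 and 7.80 in flc-3 and 5.14, 5.24 and 4.41 in FLC. Leaf 11, cauline in flc-3 and rosette in FLC, kept a similar level, with 7.75, 8.38 and 10.00 in flc-3 and 3.41, 4.59 and 4.20 in FLC in experiment 1. Over the 12 pairs, 10 were higher in flc-3 without overlap (12.5% of such pairs over all probe sets), and the differences ran from -0.29 to 5.10 with a median of 1.75. Again the count restates the choice of the genes.

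**Figure D1:**
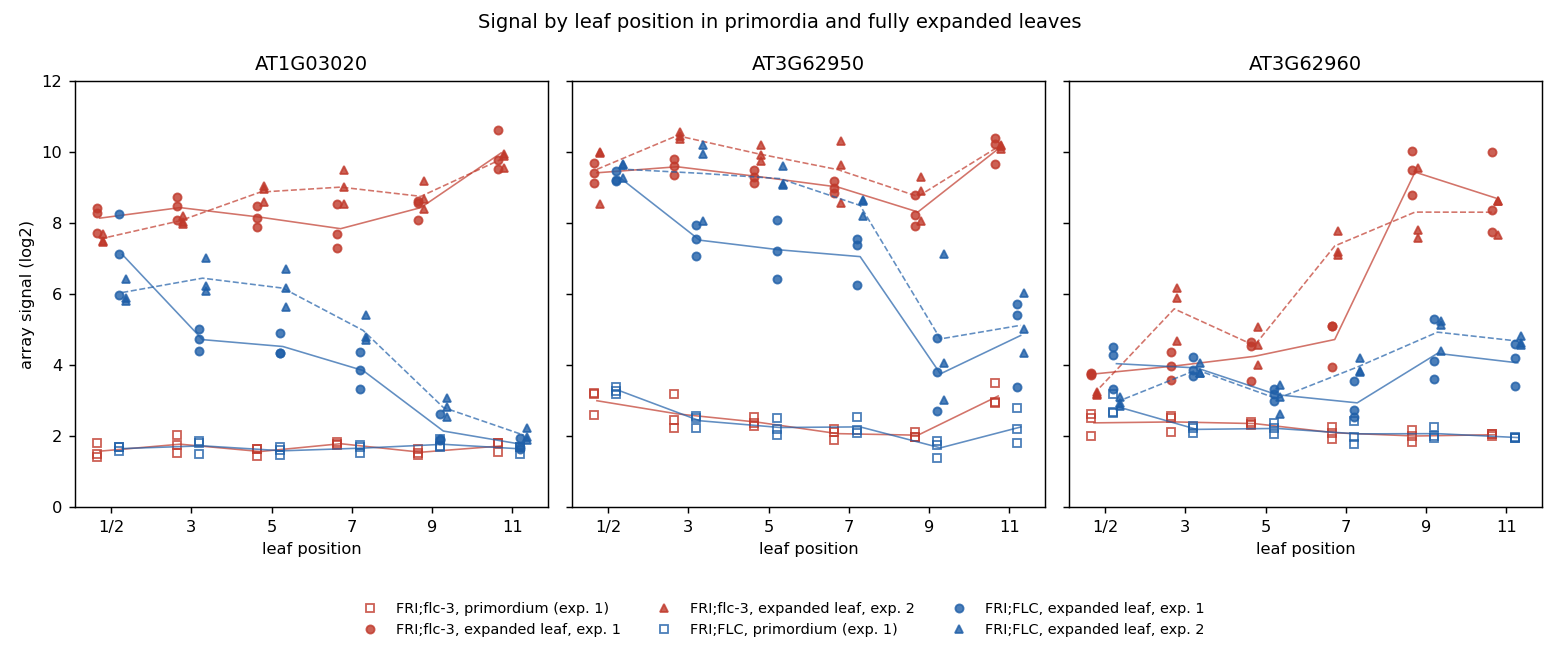
Signal (log2) against leaf position for each gene, with FRI;flc-3 in red left of FRI;FLC in blue; each point is 1 array, open squares are 1 mm primordia, circles and triangles are expanded leaves of experiments 1 and 2, and lines join group means (solid experiment 1, dashed experiment 2). Primordia of both genotypes lie at the bottom, at most 3.51, while expanded leaves part by genotype with rising position.

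Averaged over the rosette positions 1/2 to 9, the mean difference of FRI;flc-3 minus FRI;FLC was 3.73 for AT1G03020, 2.16 for AT3G62950 and 1.55 for AT3G62960 in experiment 1, with spreads between replicates of 0.53, 0.53 and 0.54 in the same order of genes (SD, n = 3 per group). In experiment 2 it was 3.16 for AT1G03020, 1.35 for AT3G62950 and 2.05 for AT3G62960, with SDs of 0.37, 0.90 and 0.52. For leaf 11 it was 7.99 for AT1G03020, 5.14 for AT3G62950 and 4.14 for AT3G62960 over both experiments, and there the genotype and the kind of leaf cannot be told apart. Collection days also differed, since flc-3 leaves of experiment 1 reached full expansion earlier from position 3 up (day 30 against day 33 for leaf 9). In experiment 2, leaves 1/2 to 7 were collected on the same days in both genotypes, and AT1G03020 had differences of 1.51, 1.62, 2.70 and 4.03 at those 4 positions, rising with position. There AT3G62950 had differences of -0.01, 1.06, 0.70 and 1.01, overlapping at leaves 1/2 and 7, so it did not rise steadily. AT3G62960 had differences of 0.24 at leaves 1/2, 1.72 at leaf 3 and 3.41 at leaf 7, with a smaller one at leaf 5 than at leaf 3 (means of 4.56 in flc-3 and 3.06 in FLC). Over the rosette positions of both experiments, limma called the cell division marker AT1G01370 lower (-0.69) and the photosynthesis marker AT3G55800 higher (0.10) in flc-3. The other measured markers, AUR1 (-0.20), RCA (0.16), AT3G09070 (0.05) and CLV3 (-0.02), were not called. The part of these differences was not tested.

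**Figure D2:**
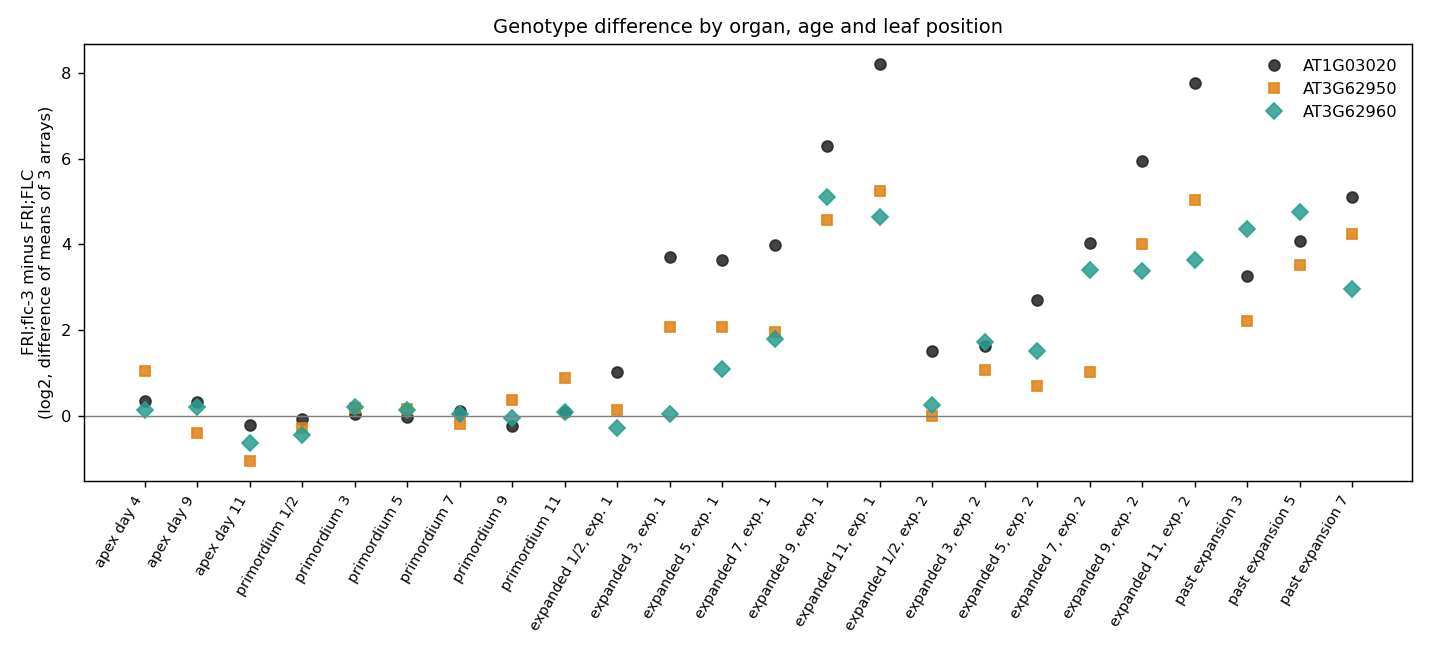
Difference of group means (FRI;flc-3 minus FRI;FLC, log2) in each of 24 matched strata of 3 against 3 arrays, ordered by organ, age and position. All 3 genes lie between -1.05 and 1.04 in apices and primordia and mostly above 1 in expanded leaves from position 5 up and in leaves past full expansion.

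The change with position was tested within each genotype, leaf 9 minus leaves 1/2 over both experiments. These tests use arrays that also entered the choice of the genes, so they are not fully independent of it. The same holds for the other tests of the 3 genes within a genotype. In FRI;flc-3, 43.5% of probe sets passed an adjusted p of 0.05 in limma's moderated test with Benjamini-Hochberg adjustment, and in FRI;FLC 43.3% did, so a call by itself is common here. AT1G03020 changed by 0.74 ± 0.25 (SE, adjusted p = 0.011) in flc-3, against -4.10 ± 0.25 (adjusted p = 3.0e-22) in FLC. The rise in flc-3 was 0.29 and not called in experiment 1 alone, and leaving out replicate 1 or 3 also ended the call. AT3G62950 changed by -0.94 ± 0.45 (adjusted p = 0.086, not called) in flc-3 and by -5.16 ± 0.45 (adjusted p = 2.6e-15) in FLC. Array weights (-1.30) or leaving out replicate 1 put the flc-3 change past the threshold. AT3G62960 changed by 5.40 ± 0.32 (adjusted p = 7.0e-23) in flc-3 and by 1.13 ± 0.32 (adjusted p = 0.0026) in FLC, where the change was 0.29 and not called in experiment 1 alone. The difference between genotypes in these changes was not tested, because the genes were chosen on the genotype. Both measured cell division markers (of 7 listed) fell with position, AUR1 by 0.68 in flc-3 and 0.69 in FLC, and the centromeric histone gene AT1G01370 by 1.55 in flc-3 and 1.05 in FLC, and their part in the result was not tested.

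From leaf 9 to leaf 11, cauline in FRI;flc-3, the signal of AT1G03020 rose by 1.29 ± 0.25 (adjusted p = 7.1e-05) and that of AT3G62950 by 1.59 ± 0.45 (adjusted p = 0.0082), where 18.8% of probe sets were called by the limma fit. AT3G62960 changed by -0.36 ± 0.32 (adjusted p = 0.45). In experiment 2 alone the changes of AT1G03020 (1.05) and AT3G62950 (1.40) were not called, and AT3G62950 also lost its call without replicate 2. In FRI;FLC, with rosette leaves at both positions, the limma fit called 0.0103% of probe sets, which is 2 probe sets (750 at an unadjusted p under 0.05), and none of the 3 genes. There AT1G03020 changed by -0.58, AT3G62950 by 0.73 and AT3G62960 by -0.26, and 1 of the 3 had an unadjusted p under 0.05.

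The experiments differed in level within 1 genotype. For expanded leaves of FRI;flc-3, experiment 2 minus experiment 1, limma called 30.6% of probe sets and none of the 3 genes, with changes of 0.18 for AT1G03020, 0.43 for AT3G62950 and 0.41 for AT3G62960 (1 of 3 at an unadjusted p under 0.05). AT3G62960 was called at 0.47 after quantile normalization and at 0.61 without replicate 3, and AT3G62950 at 0.67 without replicate 1. The collection days of flc-3 leaves differed between the experiments except at leaves 1/2, and there the change was -0.59 for AT1G03020 and -0.55 for AT3G62960, neither called, and 0.10 for AT3G62950. For FRI;FLC, 40.3% of probe sets were called by limma, and AT1G03020 rose by 0.73 ± 0.14 (adjusted p = 3.3e-05) and AT3G62950 by 1.14 ± 0.26 (adjusted p = 0.00029), while AT3G62960 changed by 0.16. The 1 measured phloem marker (of 8), AT3G09070, rose by 0.39 in each genotype, and AUR1 rose by 0.63 in FLC, and their part was not tested. AT1G01370 was not called in either genotype (-0.26 in flc-3 and 0.41 in FLC).

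In leaves 3, 5 and 7 past full expansion, the signal of AT1G03020 and AT3G62950 was lower than at full expansion and that of AT3G62960 was higher in FRI;flc-3. In leaf 3 of flc-3, AT3G62950 measured 5.06, 6.64 and 6.67 past full expansion and 10.46, 10.56 and 10.37 at full expansion. In leaf 3 of FRI;FLC it measured 4.31, 3.45 and 3.99 past full expansion and 8.05, 9.95 and 10.21 at full expansion. Neither pair overlapped. In leaf 7 of flc-3, AT3G62950 measured 8.53, 8.15 and 8.94 past full expansion and 8.58, 9.64 and 10.30 at full expansion, which overlap. Leaf 7 of FLC measured 3.22, 4.71 and 4.98 past full expansion and 8.65, 8.21 and 8.63 at full expansion, which do not.

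For AT1G03020, leaf 3 of FRI;flc-3 measured 6.95, 7.50 and 6.86 past full expansion and 8.03, 7.98 and 8.19 at full expansion. Leaf 3 of FRI;FLC measured 4.16, 3.68 and 3.70 past full expansion and 6.09, 6.24 and 7.02 at full expansion. Both pairs were lower past full expansion without overlap. For AT3G62960, leaf 3 of flc-3 measured 7.61, 7.43 and 8.34 past full expansion and 5.90, 4.69 and 6.17 at full expansion, and leaf 5 measured 7.42, 8.70 and 8.99 past and 4.01, 5.07 and 4.58 at full expansion. Leaf 5 of FLC measured 3.60, 4.17 and 3.10 past full expansion and 3.44, 3.11 and 2.62 at full expansion, which overlap. At leaf 7 the pattern differed, with 8.31, 8.03 and 7.41 past and 7.10, 7.78 and 7.19 at full expansion in flc-3, which overlap, and 4.84, 5.45 and 4.62 past and 3.81, 3.84 and 4.19 at full expansion in FLC, which do not. The higher signal of AT3G62960 past full expansion was thus clear at leaves 3 and 5 of flc-3 and at leaf 7 of FLC.

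Over the 3 positions, past minus full expansion, limma called 30.5% of probe sets in FRI;flc-3 leaves and 34.7% in FRI;FLC leaves. AT1G03020 fell in both genotypes, with -0.84 ± 0.20 (adjusted p = 0.00073) in flc-3 and -2.20 ± 0.20 (adjusted p = 2.8e-14) in FLC. AT3G62950 fell too, with -2.54 ± 0.37 (adjusted p = 5.0e-08) in flc-3 and -4.94 ± 0.37 (adjusted p = 7.5e-18) in FLC. AT3G62960 rose by 2.19 ± 0.26 (adjusted p = 1.7e-10) in flc-3 and changed by 0.39 ± 0.26 (adjusted p = 0.26) in FLC, where array weights brought it to 0.57 and over the threshold. Leaves past full expansion were also collected later than leaves at full expansion, so age of the leaf and of the plant cannot be told apart. AUR1 fell too, by 0.83 in flc-3 and 0.58 in FLC, while the other measured cell division marker, AT1G01370, was not called (-0.36 in flc-3 and -0.15 in FLC). In FLC the phloem marker AT3G09070 changed by 0.37, RCA by -0.35 and the photosynthesis marker AT3G55800 by -0.28, all called by limma. None of these was called in flc-3. The part of these marker changes was not tested. Between genotypes, all 3 genes were higher in flc-3 without overlap at all 3 positions (12.5% of such pairs over all probe sets). The median differences were 4.07 for AT1G03020, 3.52 for AT3G62950 and 4.36 for AT3G62960. These counts again restate the choice of the genes. Markers differed there too, flc-3 minus FLC, with AUR1 at -0.63, AT1G01370 at -0.96, AT3G09070 at -0.30 and AT3G55800 at 0.22, all called by limma. RCA (0.24) and CLV3 (0.04) were not called, and the part of these differences was not tested.

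**Figure D3:**
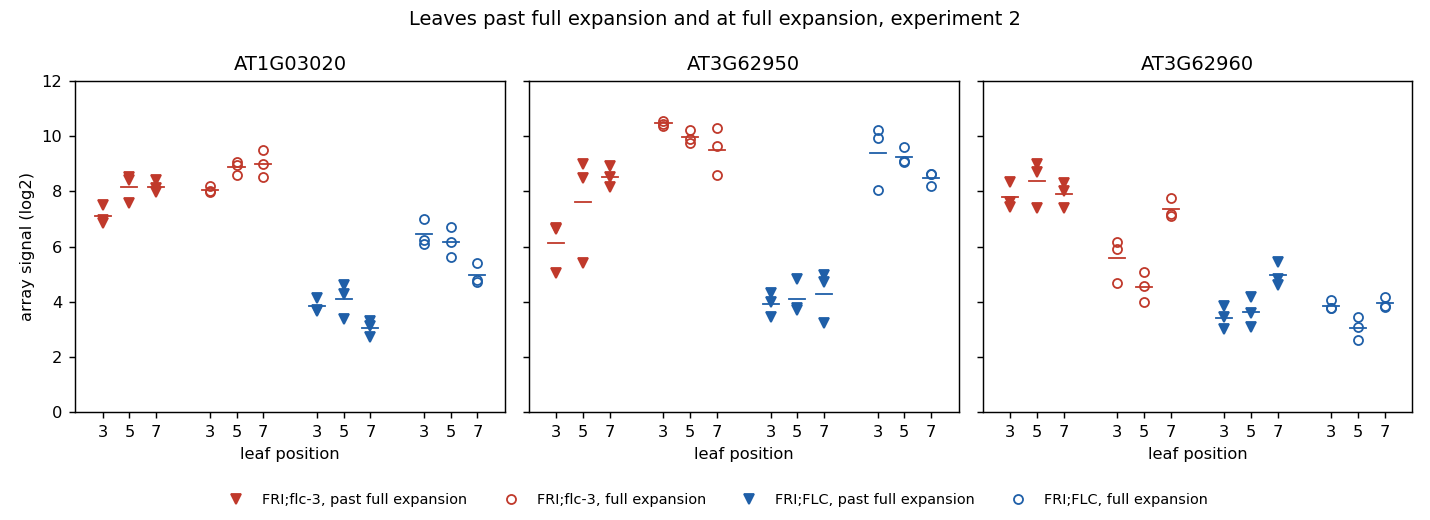
Signal (log2) of each gene in leaves 3, 5 and 7 of experiment 2, with FRI;flc-3 (red) left of FRI;FLC (blue) and past full expansion (filled triangles) left of full expansion (open circles); points are arrays and bars are means of 3. AT3G62960 in FRI;flc-3 is the only one of the 3 genes in the 2 genotypes whose change past full expansion over the 3 positions was called upwards without array weights.

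In 1 mm primordia the 3 genes were close to the bottom of the scale in both genotypes. AT1G03020 ran from 1.42 to 2.04, with medians of 1.65 in FRI;flc-3 primordia and 1.69 in FRI;FLC primordia (18 arrays each). AT3G62960 ran from 1.79 to 3.18, with a median of 2.15 in each genotype. AT3G62950 ran from 1.39 to 3.51, with medians of 2.42 in flc-3 and 2.20 in FLC. It measured 2.60, 3.19 and 3.21 in leaves 1/2 of flc-3 and 3.19, 3.38 and 3.28 in leaves 1/2 of FLC. In leaf 9 it measured 1.99, 2.12 and 1.98 in flc-3 and 1.87, 1.76 and 1.39 in FLC. In leaf 11 it measured 2.96, 2.93 and 3.51 in flc-3 and 1.80, 2.19 and 2.79 in FLC, without overlap. Since expanded leaf 11 was cauline in flc-3 and rosette in FLC, genotype and kind of leaf cannot be told apart at this position. Of the 6 positions, flc-3 arrays were all higher at 0 for AT1G03020, 2 for AT3G62950 and 1 for AT3G62960, beside 10.2% of such pairs over all probe sets, and all lower at 1, 0 and 1.

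Within genotypes, leaf 9 minus leaves 1/2 primordia, limma called 29.0% of probe sets in FRI;flc-3 primordia and 34.5% in FRI;FLC primordia. AT3G62950 fell by 0.97 ± 0.21 (adjusted p = 0.00036) in flc-3 and by 1.61 ± 0.21 (adjusted p = 8.5e-08) in FLC. AT3G62960 changed by -0.37 (adjusted p = 0.064) in flc-3 and fell by 0.77 ± 0.15 (adjusted p = 0.00012) in FLC, and AT1G03020 was not called in either. Array weights, or leaving out replicate 3, put AT3G62960 in flc-3 past the threshold (-0.40 and -0.55). From leaf 9 to leaf 11, limma called 7.01% of probe sets in flc-3 and 8.32% in FLC, and of the 3 genes it called AT3G62950 in flc-3, which rose by 1.10 ± 0.21 (adjusted p = 0.00037). Leaf 11 is the cauline position in flc-3, so position and kind of leaf cannot be told apart in that rise. In FLC, AT3G62950 changed by 0.59 ± 0.21 (adjusted p = 0.072), and by 0.92 with a call without replicate 1.

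Most of the array changed between the primordium and the expanded leaf of the same rosette positions in experiment 1. By limma, 83.3% of probe sets were called in FRI;flc-3 plants and 83.2% in FRI;FLC plants. The stages were collected on different days and compared without pairing. These tests use arrays that also entered the choice of the genes, so they are not fully independent of it. A larger rise in flc-3 may restate that choice. AT1G03020 rose by 6.55 ± 0.13 in flc-3 (adjusted p = 6.8e-45) and by 2.79 ± 0.13 in FLC. AT3G62950 rose by 6.70 ± 0.17 in flc-3 and by 4.59 ± 0.17 in FLC. AT3G62960 rose by 2.98 ± 0.16 in flc-3 and by 1.40 ± 0.16 in FLC. These changes are averages over positions that differed. In FLC, the means of AT1G03020 were 1.66 in primordia and 7.12 in expanded leaves at leaves 1/2, but 1.78 and 2.15 at leaf 9. In flc-3, the means of AT3G62960 were 2.38 in primordia and 3.75 in expanded leaves at leaves 1/2, and 2.01 and 9.44 at leaf 9.

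In shoot apices the signals moved with age and not in a fixed order of genotypes. The median over all apices lay between those of primordia and expanded leaves for AT1G03020 (4.00) and AT3G62950 (6.37). For AT3G62960 it was 6.65, above the medians of expanded leaves (4.21) and primordia (2.15), and in FLC plants the apex was its highest organ, with a median of 7.69 against 3.79 in expanded leaves and 3.84 past full expansion. In day 4 apices, AT1G03020 measured 5.21, 4.78 and 5.68 in FRI;flc-3 and 3.65, 4.86 and 6.16 in FRI;FLC, and in day 11 apices 3.84, 3.97 and 3.84 in flc-3 and 4.26, 3.54 and 4.48 in FLC. Both days overlapped. In day 4 apices AT3G62950 measured 4.92, 4.60 and 6.79 in flc-3 and 3.72, 5.18 and 4.28 in FLC. In day 11 apices it measured 5.63, 5.83 and 6.44 in flc-3 and 6.73, 7.03 and 7.31 in FLC, so there every flc-3 array was lower. AT3G62960 was lower in the same way at day 11, with 7.07, 6.72 and 7.64 in flc-3 and 7.98, 7.69 and 7.68 in FLC. Over days 4, 9 and 11, flc-3 arrays were all higher in 1 of 9 gene and day pairs (AT1G03020 at day 9), beside 8.01% over all probe sets.

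By age, day 11 minus day 4, limma called 60.0% of probe sets in FRI;flc-3 apices and 60.4% in FRI;FLC apices. AT3G62960 rose by 1.47 ± 0.41 (adjusted p = 0.0031) in flc-3 and by 2.24 ± 0.41 (adjusted p = 4.6e-05) in FLC. AT3G62950 changed by 0.54 ± 0.62 (adjusted p = 0.47) in flc-3 and rose by 2.63 ± 0.62 (adjusted p = 0.00080) in FLC. AT1G03020 fell by 1.34 ± 0.42 (adjusted p = 0.0080) in flc-3, a call that ended without replicate 3 (-1.09), and changed by -0.80 ± 0.42 (adjusted p = 0.10) in FLC. That change was called after quantile normalization (-1.19), with array weights (-1.10) and without replicate 1 (-1.50). Markers moved over the same days. CLV3, the 1 measured of 5 meristem markers, ran from 1.93 to 2.17 at day 11 and 4.66 to 5.97 at day 4 in flc-3, and from 2.18 to 2.50 at day 11 and 4.32 to 4.38 at day 4 in FLC, falls of 3.08 in flc-3 and 2.01 in FLC. Of the 2 measured of 9 photosynthesis markers, the sedoheptulose-bisphosphatase gene AT3G55800 rose by 0.63 in flc-3 and 0.68 in FLC, and RCA rose by 0.69 in flc-3 and changed by 0.21 in FLC. AT1G01370 fell by 0.84 in flc-3 and 1.13 in FLC, and AUR1 rose by 0.39 in flc-3. The part of these shifts in the changes of the 3 genes was not tested.

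After day 11, apices were sampled in FRI;FLC alone. AT1G03020 measured 6.41, 6.06 and 6.70 at day 21 and 4.26, 3.54 and 4.48 at day 11, without overlap, a rise of 2.29 ± 0.42 (adjusted p = 0.00012) where limma called 38.0% of probe sets. AT3G62950 measured 4.55, 6.90 and 7.69 at day 21 and changed by -0.64 ± 0.62 (adjusted p = 0.46), and without replicate 1, the low array, by 0.13. AT3G62960 measured 8.16, 8.06 and 8.54 at day 21 and changed by 0.47 ± 0.41. RCA fell by 0.91, AT3G55800 by 1.36 and AUR1 by 1.04 over the same days, while CLV3 changed by 0.00, and their part was not tested.

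**Figure D4:**
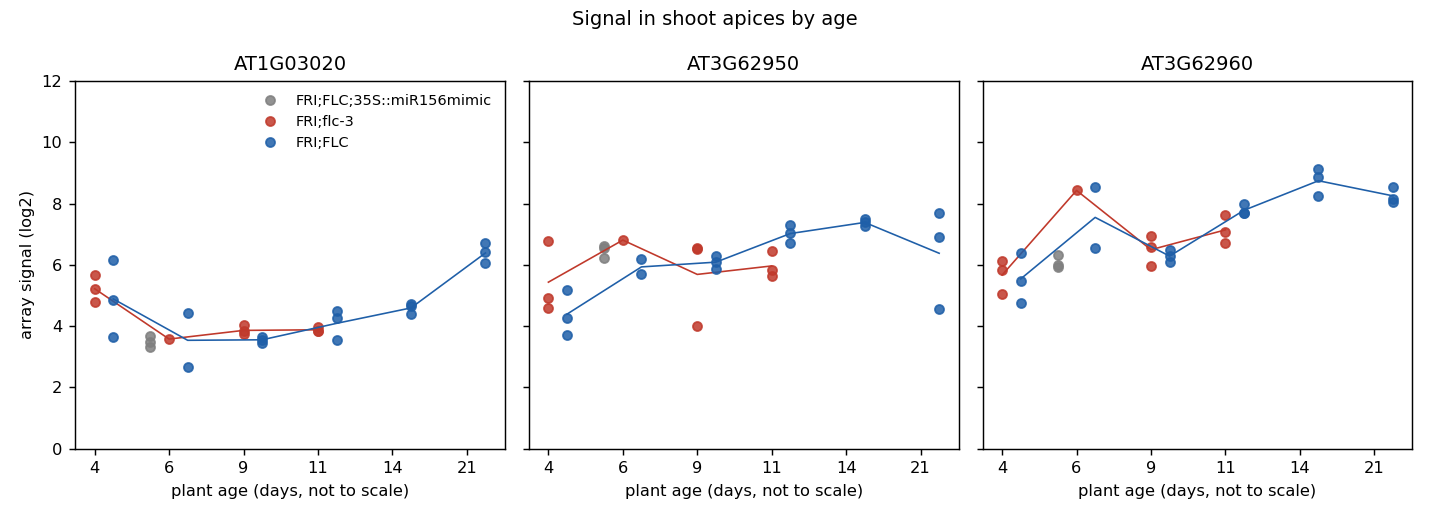
Signal (log2) of each gene in shoot apices against plant age, with mimic plants (grey, day 6) left of FRI;flc-3 (red) and FRI;FLC (blue); points are arrays, lines join group means, and ages are not to scale. Genotypes interleave, and AT1G03020 in FRI;FLC is highest at day 21, between 6.06 and 6.70.

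FRI;FLC;35S::miR156mimic plants were compared with FRI;FLC plants at day 6. AT3G62960 measured 6.00, 6.33 and 5.92 in mimic apices and 8.54 and 6.56 in FLC apices. Mimic minus FLC was -1.47 ± 0.46 (adjusted p = 0.015, limma), where 31.9% of probe sets were called. The 2 FLC arrays differ by more than that from each other, the call ended without replicate 1 (-0.44) or replicate 3 (-1.39) and with array weights (-1.54), and against the mean of FLC days 4 and 9 the difference was 0.17. AT3G62950 measured 6.22, 6.55 and 6.62 in mimic apices and 6.18 and 5.69 in FLC apices, a difference of 0.53 ± 0.70 (adjusted p = 0.59). AT1G03020 measured 3.68, 3.33 and 3.48 in mimic apices and 2.66 and 4.42 in FLC apices, a difference of -0.04. Markers differed too. CLV3 ran from 2.61 to 3.07 in mimic apices and from 4.43 to 4.86 in FLC apices (-1.80), RCA differed by 1.05, AT3G55800 by 1.03 and AT3G09070 by 1.83, all called by limma, and their part was not tested. The single FRI;flc-3 day 6 array had 3.58 for AT1G03020, 6.81 for AT3G62950 and 8.43 for AT3G62960.

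Sorted by mean, most of the 53 groups overlapped with the next group. AT1G03020 ran from 1.55 in FRI;flc-3 leaf 9 primordia to 9.98 in flc-3 expanded leaf 11 of experiment 1, and in 47 of 52 neighbouring pairs of that order the arrays overlapped. AT3G62950 ran from 1.67 in FRI;FLC leaf 9 primordia to 10.46 in flc-3 expanded leaf 3 of experiment 2, with overlap in 49 of 52 pairs. AT3G62960 ran from 1.96 in FLC leaf 11 primordia to 9.44 in flc-3 expanded leaf 9 of experiment 1, with overlap in 51 of 52 pairs. The share over all probe sets was not computed, and with so many small groups overlap of neighbours says little about these genes.

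Among themselves, AT1G03020 and AT3G62950 shared most of their pattern, with a Pearson r of 0.899 over the 53 group means and 0.900 over the 24 groups of expanded leaves, while in the 11 apex groups r was -0.17. AT3G62960 followed the chromosome 1 gene with r = 0.561 and its neighbour AT3G62950 with r = 0.499 over all groups, and with 0.524 and 0.207 over expanded leaves. In apices, AT3G62950 and AT3G62960 had r = 0.792. These correlations share arrays, normalization and the step from primordium to leaf, and are given as descriptions.

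Among 10732 genes with a probe set of their own, those most like AT1G03020 over the 53 group means were AT1G20070 (r = 0.911), AT3G62950, AT5G06800 (0.895), and the CC-type genes AT4G15660 (0.861) and AT4G15700 (0.852). Those most like AT3G62950 were AT4G15700 (0.932), AT1G20070 (0.920), AT1G33340 (0.920), AT4G15660 (0.919) and AT1G03020. Other CC-type genes therefore stood among the nearest patterns of both. For AT3G62960 none did, and the nearest were AT5G43180 (0.866), bZIP44 (AT1G75390, 0.848), which encodes a bZIP transcription factor, AT1G49310 (0.818), AT1G64620 (0.785) and AT2G47560 (0.784).

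The rest of the family was read from a list of 21 CC-type genes, of which 17 had a named probe set and 14 were not among the 3. From primordium to expanded leaf, 13 of these 14 rose and 1 fell in FRI;flc-3 (median change 3.76, beside 0.00 over all probe sets), and 12 rose and 2 fell in FRI;FLC (median 3.52, beside -0.03). With 83.3% of all probe sets called in flc-3 and 83.2% in FLC in either direction, a call for nearly every gene is close to the array as a whole. Called as rising were 7908 of 19324 probe sets in flc-3 and 7603 in FLC. The gene that fell in both was ROXY1 (AT3G02000), by 1.06 in flc-3 and 1.20 in FLC. AT5G18600 rose by 5.21 in flc-3 and by 5.40 in FLC, and AT4G33040 by 5.24 in flc-3 and 5.46 in FLC. ROXY2 (AT5G14070) rose by 0.49 in flc-3 and fell by 0.78 in FLC.

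With leaf position, leaf 9 minus leaves 1/2, 8 of the 14 fell and 4 rose in FRI;flc-3 (median -1.23, beside 0.00 over all probe sets), and 9 fell and 2 rose in FRI;FLC (median -1.70), where 43.5% of all probe sets were called in flc-3 and 43.3% in FLC. The nitrate-inducible genes of the chromosome 4 cluster fell in both genotypes. AT4G15680 changed by -5.98 ± 0.52 in flc-3 and -7.22 ± 0.52 in FLC. AT4G15690 changed by -3.76 in flc-3 and -4.58 in FLC, AT4G15700 by -2.94 in flc-3 and -4.11 in FLC, and AT4G15660 by -1.96 in flc-3 and -4.49 in FLC. These 4 genes are near copies of each other, so their probe sets may not read them apart. AT3G62930, next to AT3G62950, changed by -3.33 in flc-3 and -3.97 in FLC. AT4G33040 rose by 3.32 in flc-3 and 3.15 in FLC, AT5G11930 rose by 3.69 in flc-3 and 3.52 in FLC, and CEPD2 (AT2G47880) rose by 1.65 in flc-3 and was not called in FLC.

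From leaf 9 to cauline leaf 11 of FRI;flc-3, 7 of the 14 rose and 0 fell (median 0.69, with 18.8% of all probe sets called and 8 of 14 at an unadjusted p under 0.05), among them AT4G15680 by 4.63 ± 0.52, AT4G15690 by 3.84, AT4G15700 by 3.24 and AT4G15660 by 2.52. In FRI;FLC, leaf 11 against leaf 9, limma called 0 of the 14, and 1 of 14 had an unadjusted p under 0.05. Past full expansion, 9 of the 14 fell and 3 rose in flc-3 (median -1.02, beside -0.03), and 10 fell and 2 rose in FLC (median -1.60), where 30.5% of all probe sets were called in flc-3 and 34.7% in FLC. GRX480 (AT1G28480) rose by 2.17 ± 0.47 in flc-3 past full expansion (adjusted p = 0.00017, limma), and AT5G11930 rose by 2.01 in flc-3 and 2.90 in FLC.

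**Figure D5:**
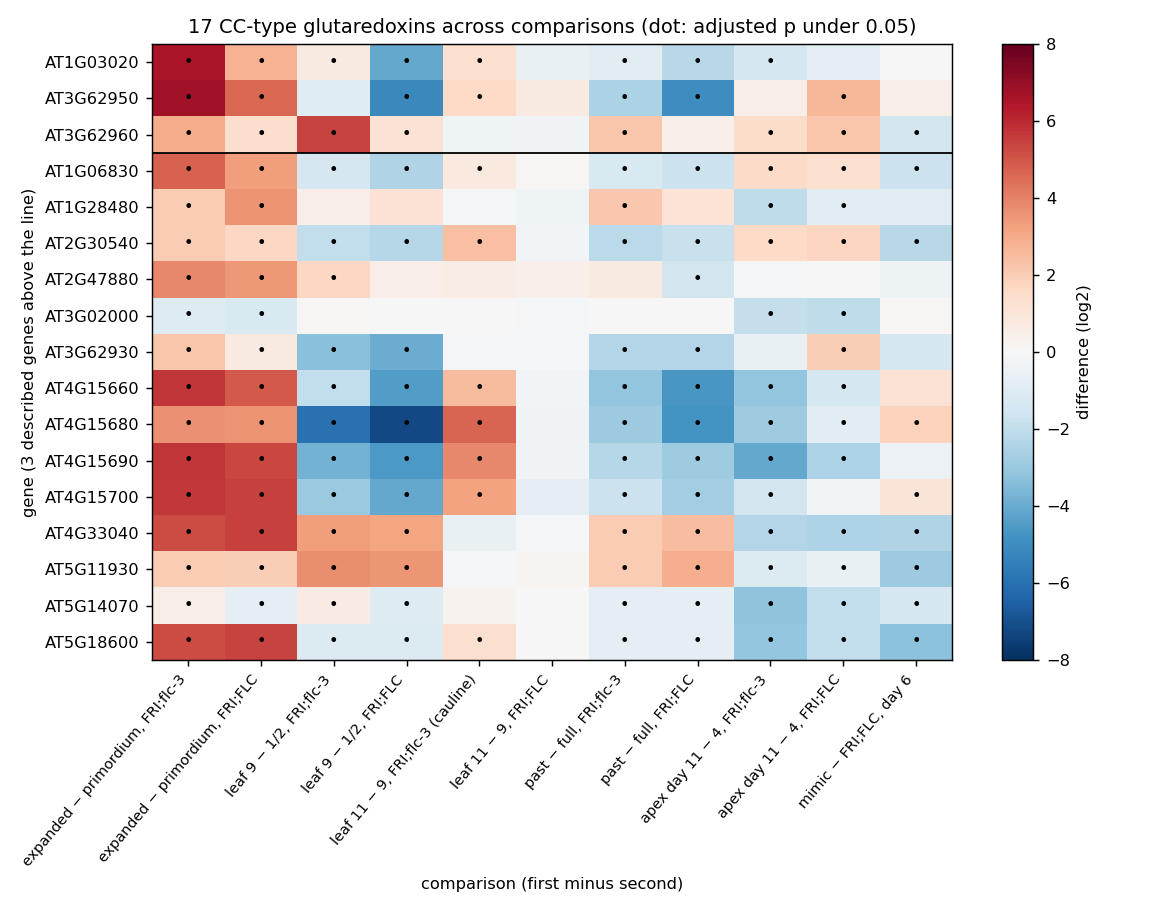
Differences (log2) of 17 CC-type glutaredoxins in 11 comparisons, the 3 described genes above the line; red is higher and blue lower in the first-named state, and a dot marks an adjusted p under 0.05. AT3G62960 has its largest change at leaf 9 minus leaves 1/2 in FRI;flc-3 (5.40), where AT4G15680 has -5.98.

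Between genotypes, differences of both signs were called among the other CC-type genes in leaves. In rosette expanded leaves, where limma called 34.0% of probe sets, 7 of the 14 were higher and 2 lower in FRI;flc-3 (median 0.29, beside 0.01 over all probe sets), from CEPD1 (AT1G06830) at 0.96 ± 0.11 and AT3G62930 at 0.95 ± 0.15 to GRX480 at -1.08 ± 0.26. Past full expansion, with 31.7% of probe sets called, 8 were higher and 1 lower (median 0.98), and the largest difference of the 14 was that of CEPD2 (AT2G47880), 3.25 ± 0.30 (adjusted p = 9.8e-14). In primordia, with 21.3% called, 5 were higher and 3 lower (median 0.17), with AT5G18600 at 0.85 and AT5G11930 at -0.78. In apices limma called 1.12% of probe sets and 0 of the 14, of which 2 had an unadjusted p under 0.05. In apices by age, day 11 minus day 4, 2 of the 14 rose and 10 fell in flc-3 (60.0% of probe sets called) and 3 rose and 9 fell in FRI;FLC (60.4%). From day 11 to day 21 in FLC 7 rose and 1 fell (38.0%), and in mimic day 6 apices 2 were higher and 6 lower than in FLC (31.9%).

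Of the other glutaredoxin classes, 5 of 6 listed CPYC-type genes were measured. With leaf position, 2 rose and 0 fell in each genotype, by at most 1.04 (AT1G77370 in FRI;flc-3), a share near that of all probe sets called (43.5% in flc-3 and 43.3% in FLC). In rosette expanded leaves, where 34.0% of all probe sets were called, 0 were higher and 3 lower in flc-3, by at most -0.29 (AT5G63030). No CGFS-type glutaredoxin and no TGA factor of the lists had a named probe set here, so the factors that CC-type proteins bind were not analysed here. Of 25 nitrogen signalling genes 2 were measured, both of the NIGT1/HHO family of nitrate-responsive repressors. AT1G25550 fell with leaf position by 0.82 in flc-3 and by 0.90 in FRI;FLC, and rose by 0.54 from leaf 9 to cauline leaf 11 in flc-3, while AT1G68670 rose by 0.39 with position in flc-3. Of 10 type-A response regulators, which damp cytokinin signalling, 2 were measured, and both fell past full expansion. There 30.5% of all probe sets were called in flc-3 and 34.7% in FLC. AT1G74890 (ARR15) fell by 1.06 in flc-3 and 0.86 in FLC, and AT2G40670 (ARR16) by 1.23 in flc-3 and 0.76 in FLC. Of 4 glutathione genes 2 were measured, and the glutathione reductase gene AT3G24170 rose past full expansion by 0.79 in flc-3 and 0.51 in FLC, while AT3G54660, also a glutathione reductase gene, changed by 0.22 in flc-3 and -0.10 in FLC and was not called.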

How the data were processed

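Array signals were used as deposited by the authors, in log2 units. The submitters' processing notes list GCRMA and MAS5 without versions or roles, so which of them gave the deposited log2 values is not given in the sources used here. Of 19324 probe sets, 10918 had 1 gene in the platform annotation, 407 had several and 7999 were unnamed here; coordinates are those of RefSeq's TAIR10.1 table. Arrays were grouped by genotype, organ, age, position and experiment. limma 3.58.1 (R 4.3.3) fitted 1 coefficient per group in 4 sets of arrays (apices, primordia, leaves, primordia with experiment 1 leaves), with eBayes (trend) and Benjamini-Hochberg adjustment over all probe sets, called at 0.05, two-sided. In simulated data for leaf 9 minus leaves 1/2 in FRI;FLC (19324 probe sets, 200 changed), 84% of changes of 1 log2 unit and 98% of 2 were recovered, with 10 false calls. The number of arrays limits the precision. The 3 genes and all gene lists were chosen with earlier results of these data known. Named are the 3 genes, measured glutaredoxins and TGA factors, up to 2 called genes of another list, and the 5 genes with the highest Pearson r. The labels do not say whether replicate numbers mark a shared plant, batch or day. Of 197 same-numbered pairs, 58 had correlated deviations over 0.1, and r ran from -0.753 to 0.745. The highest r was for leaf 11 minus 9 of expanded FRI;FLC leaves, where 4 of 6 pairs passed 0.1. Only for FRI;FLC apices at days 21 and 11 did all pairs of a comparison pass it (3 pairs, r from 0.176 to 0.424). There the block changed no call of the 3 genes. Alternatives were quantile normalization, array weights, no trend, a filter on low means, single experiments, other controls, a replicate block and each replicate left out.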

Additional observations from a re-analysis of the deposited data

Results flagged for a closer look

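From leaf 9 to leaf 11 of expanded leaves, AT1G03020 was higher in all 6 FRI;flc-3 arrays of leaf 11 than the leaf 9 mean of their experiment, by 1.29 on average, and changed by -0.58 on average over 6 FRI;FLC arrays, each below its leaf 9 mean. The difference of these changes was 1.87 on the log2 scale. It was not tested, and genotype and the kind of leaf (cauline in flc-3) cannot be told apart. The FRI;FLC signals also lay near the bottom of the scale. Their means in experiments 1 and 2 were 2.15 and 2.81 at leaf 9, and 1.76 and 2.03 at leaf 11. In leaf 11 against leaf 9 primordia, AT3G62960 was above the leaf 9 mean in all 3 flc-3 arrays (0.03 on average) and below it in all 3 FLC arrays (-0.11 on average), a difference of 0.14 at signals near the bottom of the scale, also not tested. There too, genotype and kind of leaf cannot be told apart. No group had more than 3 arrays, so single arrays were not screened for lying apart.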

How the results depend on the processing

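The values for AT1G03020, AT3G62950 and AT3G62960 under the alternatives include genotype differences, which had no test and no threshold. Of all these values, 447 were counted as unchanged, which for a test means the same direction and side of the threshold. Another 13 changed sign, 12 gained and 11 lost a call, and the cause was not tested. All genotype differences moved by less than the spread between replicates. Quantile normalization gave -1.19 for AT1G03020 (FRI;FLC apices, day 11 minus 4), 0.0011 for AT1G03020 in mimic apices and 0.47 for AT3G62960 (FRI;flc-3, experiment 2 minus 1). Array weights gave -1.10 and 0.07 for AT1G03020 in the first 2 of these. For AT3G62960 they gave -1.54 in mimic apices, -0.40 in flc-3 primordia (leaf 9 minus 1/2), 0.57 past full expansion in FLC and 0.18 for leaf 11 minus 9 in flc-3, and for AT3G62950 -1.30 (flc-3, leaf 9 minus 1/2). Experiment 1 alone gave 0.29 for AT1G03020 (flc-3) and 0.29 for AT3G62960 (FLC) at leaf 9 minus 1/2, and experiment 2 alone 1.05 and 1.40 for AT1G03020 and AT3G62950 at leaf 11 minus 9 in flc-3. FLC days 4 and 9 as control gave 0.17 for AT3G62960 in mimic apices. Positions collected on the same day gave -0.59 for AT1G03020 and -0.55 for AT3G62960 (flc-3, experiment 2 minus 1).

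With each replicate left out in turn, AT1G03020 ranged from -1.50 to -0.35 (FLC apices, day 11 minus 4), -1.61 to -1.09 (the same in flc-3), -1.01 to 0.92 (mimic), -0.10 to 0.04 (flc-3 primordia, leaf 9 minus 1/2), -0.21 to 0.001 (FLC primordia, leaf 11 minus 9) and 0.60 to 0.84 (flc-3 leaves, 9 minus 1/2). AT3G62950 ranged from -1.15 to 0.13 (FLC apices, day 21 minus 11), 0.18 to 0.92 (FLC primordia, leaf 11 minus 9), -0.07 to 1.16 (FLC leaves, 11 minus 9), -1.05 to -0.82 (flc-3 leaves, 9 minus 1/2), 1.45 to 1.66 (flc-3 leaves, 11 minus 9) and 0.25 to 0.67 (flc-3, experiment 2 minus 1). AT3G62960 ranged from -2.58 to -0.44 (mimic), -0.55 to -0.23 and -0.06 to 0.13 (flc-3 primordia, leaf 9 minus 1/2 and leaf 11 minus 9), 0.19 to 0.61 and -0.08 to 0.29 (experiment 2 minus 1 in flc-3 and in FLC). The replicate block changed none of the 54 tests of the 3 genes; AT1G03020 stayed at -4.10 (adjusted p = 1.1e-21, limma) for leaf 9 minus 1/2 in FLC with the replicate block.

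Testing only probe sets above the median mean left out all 3 genes, gave counts of calls between 0% (leaf 11 minus 9 in FLC) and 70.3% of the main ones, and left at most 4 other CC-type genes called in either direction in a leaf comparison. Other settings moved the count of calls by over 1.5 times in 14 comparisons: leaf 11 minus 9 in flc-3 (1062 to 8726, main 3638) and FLC (0 to 168, main 2), leaf 9 minus 1/2 in flc-3 (3730 to 5467, main 8402) and FLC (5118, main 8368), primordia leaf 11 minus 9 in flc-3 (608 to 743, main 1354) and FLC (647 to 785, main 1607), experiment 2 minus 1 in flc-3 (2440 to 3843, main 5917), past full expansion in FLC (3757 to 10481, main 6698), mimic apices (963 to 3702, main 6164), FLC apices day 21 minus 11 (4772, main 7337), and genotype in apices (56 to 464, main 216), primordia (2547 to 2549, main 4115), rosette leaves (3001 to 3689, main 6570) and past full expansion (3374 to 3798, main 6120). Signals near 2 limit what can be said of primordia.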

Other observations

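The lowest array of AT3G62950 was replicate 1 in 16 of 27 groups of experiment 2, against 10 of 24 in experiment 1. For AT1G03020 replicate 1 was lowest in 10 of 27 groups of experiment 2 and for AT3G62960 in 11 of 27. Past full expansion, in leaf 5 of FRI;flc-3, replicate 1 of AT3G62950 measured 5.42 and the others 8.99 and 8.48.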
